A study of Arabidopsis thaliana with 12 samples.

Results

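The results below concern 10 genes of *Arabidopsis thaliana*, 9 that carry the ethylene signal from receptor to transcription factor and *HOOKLESS1* (*HLS1*), a gene of the apical hook. They were chosen by locus name, with earlier results of these data known, from the 33602 loci counted, and 10 of 10 passed the filter on low counts that left 18356 loci for testing. The libraries came from whole seedlings, 2 days old, grown in true darkness at 21 °C. Before darkness the seeds received 3 h white light to induce germination, then a far-red pulse of 15 min. The 4 genotypes compared were written without allele names in the labels, as WT, *pif3*, a mutant of PHYTOCHROME-INTERACTING FACTOR 3 (PIF3), *pif145*, a mutant of PIF1, PIF4 and PIF5, and *pifq*, a mutant of PIF1, PIF3, PIF4 and PIF5. Each genotype had 3 libraries, described by the study as biological replicates, with 23907577 to 41247734 counted reads per library. Levels are given as CPM, the read count of a gene scaled to a common library total, after TMM scaling, which corrects each total for its composition.

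Ethylene is a gas that plants make and sense, and in darkness it tightens the apical hook, the bend that shields the shoot tip as a seedling pushes through soil. The receptors ETR1, ETR2, ERS1, ERS2 and EIN4 sit in the endoplasmic reticulum and, while no ethylene is bound, keep the protein kinase CTR1 active. CTR1 phosphorylates EIN2 and so holds it back. When ethylene binds, this brake is released, and a part of EIN2 acts in the nucleus to raise the transcription factors EIN3 and EIL1, which the F-box proteins EBF1 and EBF2 otherwise mark for degradation. EIN3 and EIL1 switch on ethylene response genes, among them *HLS1*, whose product resembles an N-acetyltransferase and without which no hook forms. PIFs are basic helix-loop-helix factors that build up in the dark, hold the seedling in its dark-grown form and bind the G-box (CACGTG), and PIF3 also binds the PBE-box (CACATG).

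A gene is said here to have fallen or risen when its Benjamini-Hochberg adjusted p in the edgeR quasi-likelihood test was at most 0.05 and its change at least 2-fold, the thresholds of the study. Genes that met the adjusted p alone are described as lower or higher at that p. The same test with the replicate number added as a block is called the blocked fit, and its values stand beside a result where they change it. Wherever libraries were left out, the fit had no block, so how the blocked fit bears such omission was not tested. The 3 comparisons with WT use the same WT libraries and are not independent of each other.

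In *pifq*, 1 of the 10 genes fell, the receptor gene *ERS2*, to 39.2% of its WT level. Across all loci tested, 8.28% passed these thresholds in *pifq*/WT, and 3.35% did so as lower (7.99% and 4.84% with library totals left unscaled). At the adjusted p alone, *ERS1*, *ERS2*, *CTR1*, *EIN2* and *HLS1* were lower (5 of 10, where 8.28% of loci tested were lower and 18.4% passed in either direction). In the blocked fit 10 of 10 were lower at the adjusted p, against 25.9% of loci tested. The log2 fold changes ran from -1.35 to -0.50 with a median of -0.61, beside a median of -0.03 over all loci tested. Each of the 10 genes was lower in *pifq* than in WT in all 3 pairs of libraries with the same replicate number, which held for 35% of loci tested. The *pifq* and WT libraries did not overlap for the same 5 genes that met the adjusted p, and 16.7% of loci were lower with no overlap.

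**Figure D1:**
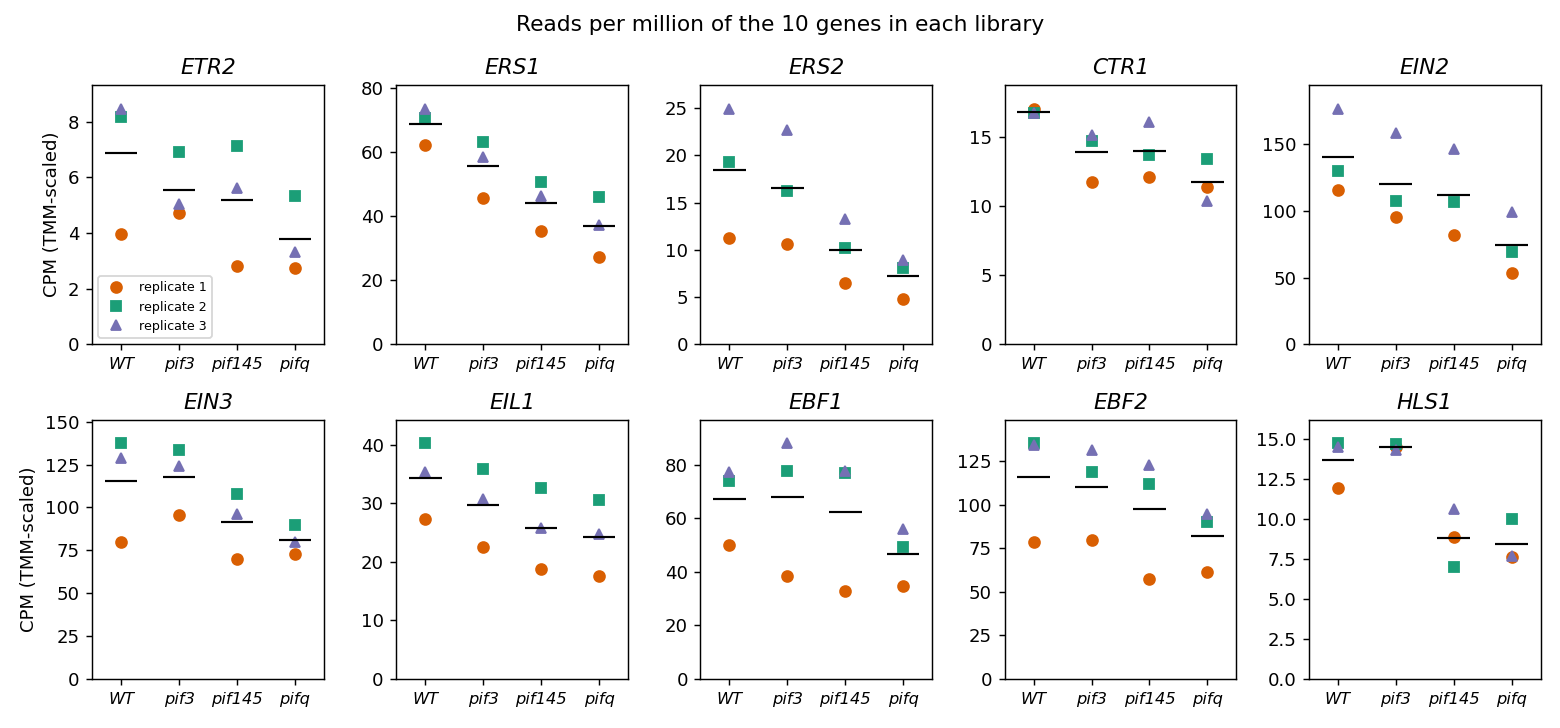
Level of each of the 10 genes in TMM-scaled CPM (vertical axis, starting at 0) in the 4 genotypes, with 1 point per library, marked by replicate number, and a bar at the mean of 3. The *pifq* mean is the lowest of the 4 for every gene shown, and replicate 1 is the lowest library of each genotype for 8 of the 10 genes. The share of all loci with replicate 1 lowest was not counted.

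Checks on the libraries bear on all that follows. In *pifq*/WT the mutated genes stood at log2 -6.66 for *PIF1*, -5.99 for *PIF3* and -5.56 for *PIF5*, whereas *PIF4* gave log2 -0.24 (SE 0.39, adjusted p = 0.707). In *pif145*, *PIF1* was at 1.48% and *PIF5* at 3.35% of WT, but *PIF4* stood at 5.53 ± 1.02 CPM against 3.29 ± 1.85 in WT (log2 0.75, SE 0.38, adjusted p = 0.347; 0.00462 blocked), higher in all 3 same-numbered pairs. The *PIF4* reads thus did not fall in *pif145* or *pifq*, and do not by themselves show the mutation that the labels name. Where that mutation lies relative to the 3′ tag was not tested. Summed seed storage markers (9 genes) lay at 619 to 1525 CPM for WT, 790 to 1228 for *pif3*, 124 to 209 for *pif145* and 125 to 222 for *pifq*. Summed greening markers (6 genes) lay at 2776 to 3015, 3823 to 4868, 5598 to 8203 and 10941 to 12959 CPM in the same order. Root markers (7 genes) summed to 42.9 to 60.3 CPM in every library, and flower markers (4 genes) to 1.02 to 4.22 CPM with *AG* at 0 reads. The seed storage and greening sums differed between genotypes, and their part in the results was not tested. The mean seed storage sum was 153 CPM in *pif145* and 181 CPM in *pifq*, and the mean greening sum was 7066 and 12259 CPM. Of the 8 seed storage genes tested, 7 had a negative and 1 a positive change in *pifq*/WT. In *pifq*/*pif145* 2 were negative and 6 positive. In whole seedlings, fewer cells of a type and less RNA per cell cannot be told apart.

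The receptors came first in the pathway and held the largest change. *ERS2* (AT1G04310), on chromosome 1 from 1154740 to 1157813 in TAIR10.1, encodes a receptor of the subfamily that lacks a canonical histidine kinase. Its levels were 11.2, 19.3 and 25 CPM for WT replicates 1, 2 and 3, 10.6, 16.2 and 22.7 for *pif3*, 6.48, 10.2 and 13.3 for *pif145* and 4.76, 8.03 and 8.92 for *pifq*. The highest *pifq* library (8.92 CPM) lay below the lowest WT library (11.2 CPM), and within every replicate number the order was WT, *pif3*, *pif145*, *pifq* from high to low. Neighbouring genotypes in this order overlapped across numbers, as they did for *ERS1*, *EIN2* and *EIL1* below. The share of all loci with this order was not counted. The change in *pifq*/WT was log2 -1.35 (SE 0.37), a 2.55-fold fall, with adjusted p = 0.0244. The call was lost without WT replicate 2 (adjusted p = 0.0654), WT replicate 3 (0.0938), *pifq* replicate 1 (0.0853) or *pifq* replicate 2 (0.0527), and without replicate 2 (0.212) or replicate 3 (0.129) of every genotype. In the blocked fit it was log2 -1.33 (SE 0.09, adjusted p = 9.4e-10).

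The stretch before the *ERS2* start is shown because this was the gene that fell. It and the other upstream stretches below are the 250 bases before the annotated start, read 5′ to 3′ on the strand of the gene from RefSeq TAIR10.1, with capitals for G-boxes, PBE-boxes and the core ATGTA to which EIN3 binds, which reads as TACAT on the other strand.
ERS2 (chr1:1157814-1158063, minus strand): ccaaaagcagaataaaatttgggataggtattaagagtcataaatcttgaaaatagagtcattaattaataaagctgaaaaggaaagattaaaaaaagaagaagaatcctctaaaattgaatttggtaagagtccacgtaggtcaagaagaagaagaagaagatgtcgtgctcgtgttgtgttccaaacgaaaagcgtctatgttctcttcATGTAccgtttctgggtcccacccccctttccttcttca
Of 27443 upstream stretches of protein-coding genes, 6.49% held a G-box, 11.1% a PBE-box on either strand and 52% the EIN3 core. Of the 10 genes, 0 held a G-box, 1 (*EBF1*) a PBE-box and 5 the EIN3 core (*ETR2*, *ERS2*, *EIN2*, *EIN3* and *EBF2*). The letters mark a match only, and stretches farther upstream were not searched.

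*ERS1* (AT2G40940), on chromosome 2 from 17084321 to 17087326, encodes a receptor of the ETR1 subfamily. It read 62.2, 70.6 and 73.6 CPM for WT replicates 1, 2 and 3, 45.6, 63.3 and 58.5 for *pif3*, 35.4, 50.7 and 46.2 for *pif145* and 27.3, 45.9 and 37.2 for *pifq*. Both *pif145* and *pifq* lay below WT with no overlap, and the order WT, *pif3*, *pif145*, *pifq* again held within each replicate number. In *pifq*/WT the difference was log2 -0.90 (SE 0.21, adjusted p = 0.0098), 1.87-fold lower. It stayed under an adjusted p of 0.05 on leaving out any single library, and reached 0.168 without replicate 3 of every genotype.

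*ETR2* (AT3G23150), on chromosome 3 from 8254559 to 8257888, encodes a receptor of the same subfamily as ERS2. It was the least counted of the 10, with 66 to 312 reads a library, and stood at 3.97, 8.16 and 8.48 CPM for WT replicates 1, 2 and 3, 4.73, 6.9 and 5.05 for *pif3*, 2.82, 7.13 and 5.63 for *pif145* and 2.76, 5.34 and 3.31 for *pifq*. The libraries of *pifq* and WT overlapped, since WT replicate 1 (3.97 CPM) lay below *pifq* replicate 2 (5.34 CPM). The difference of log2 -0.84 (SE 0.37) had adjusted p = 0.144, and 5.1e-04 in the blocked fit.

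The remaining receptor genes, named to complete the family, were *ETR1* at 14.4 ± 3.67 CPM in WT and 9.40 ± 1.85 in *pifq* (log2 -0.61, SE 0.24, adjusted p = 0.0965; 1.2e-04 blocked) and *EIN4* at 5.17 ± 0.34 and 4.92 ± 1.32 CPM (log2 -0.07, SE 0.19, adjusted p = 0.837). Summed over the 5 receptor genes, the level averaged 114 ± 18.6 CPM for WT, 94.4 ± 16.1 for *pif3*, 74.9 ± 15 for *pif145* and 62.2 ± 14.8 for *pifq* (SD, n = 3). *ERS1* supplied 61.1% ± 5.1 of these reads in WT and 59.1% ± 1.91 in *pifq*, a difference smaller than the SD in WT. The mean of *EIN4*, unlike this sum, was higher in *pif3* (5.63 ± 0.63 CPM) and *pif145* (6.15 ± 0.47 CPM) than in WT.

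*CTR1* (AT5G03730), on chromosome 5 from 974360 to 979849, encodes the Raf-like kinase that the receptors keep active. Its levels were 17.1, 16.7 and 16.7 CPM for WT replicates 1, 2 and 3, 11.8, 14.7 and 15.2 for *pif3*, 12.1, 13.7 and 16.1 for *pif145* and 11.4, 13.4 and 10.4 for *pifq*. WT varied least, and each of the 9 mutant libraries lay below the 3 WT libraries. In *pifq*/WT the difference was log2 -0.52 (SE 0.16, adjusted p = 0.042), 1.43-fold lower, and this was close to the threshold. Leaving out WT replicate 1 (0.0876), WT replicate 2 (0.098), WT replicate 3 (0.0905), *pif3* replicate 2 (0.0599), *pif3* replicate 3 (0.0511), *pif145* replicate 2 (0.0627), *pifq* replicate 1 (0.106) or *pifq* replicate 3 (0.157) moved the adjusted p above 0.05, as did omission of replicate 1 (0.0689), 2 (0.159) or 3 (0.244) of every genotype, a fit of the compared libraries only (0.0827) and omission of the filter on low counts (0.0542). In the blocked fit it was 6.6e-04.

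*EIN2* (AT5G03280), on chromosome 5 from 787428 to 793404, encodes the membrane protein through which the signal passes to the nucleus. It stood at 115, 129.9 and 177 CPM for WT replicates 1, 2 and 3, 95.2, 108 and 159 for *pif3*, 81.7, 107 and 147 for *pif145* and 53.5, 69.4 and 99.5 for *pifq*. The highest *pifq* library (99.5 CPM) lay below the lowest WT library (115 CPM), and within every replicate number the order was WT, *pif3*, *pif145*, *pifq*. In *pifq*/WT the difference was log2 -0.93 (SE 0.28, adjusted p = 0.0405), 1.9-fold lower, and 2.2e-09 in the blocked fit. The adjusted p rose above 0.05 without WT replicate 2 (0.0757), WT replicate 3 (0.143), *pif3* replicate 2 (0.0555), *pif145* replicate 2 (0.0564), *pifq* replicate 1 (0.135) or *pifq* replicate 2 (0.108), and without replicate 1 (0.0623) or replicate 2 (0.265) of every genotype. *EIN2* stood at 79.4% of WT in *pif145* and at 52.7% in *pifq*. Its upstream stretch is shown because it held 3 matches to the EIN3 core, the last pair sharing a base, as many as *EIN3*, and the most among the 10.
EIN2 (chr5:787178-787427, plus strand): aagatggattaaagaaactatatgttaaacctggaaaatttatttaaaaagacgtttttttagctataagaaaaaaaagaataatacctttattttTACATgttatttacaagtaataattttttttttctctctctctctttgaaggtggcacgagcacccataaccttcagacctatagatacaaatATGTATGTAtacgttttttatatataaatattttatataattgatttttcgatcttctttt

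*EIN3* and *EIL1* encode the transcription factors at the end of the pathway, which are known to be controlled chiefly through protein stability. *EIN3* (AT3G20770), on chromosome 3 from 7260429 to 7263384, read 80.1, 137 and 129 CPM for WT replicates 1, 2 and 3, 95.3, 134 and 124 for *pif3*, 69.7, 108 and 96.4 for *pif145* and 73, 90 and 79.7 for *pifq*. WT replicate 1 lay among the *pifq* libraries, so the groups overlapped. The *pifq*/WT difference was log2 -0.51 (SE 0.22) with adjusted p = 0.137, and 1.1e-04 in the blocked fit.

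*EIL1* (AT2G27050), on chromosome 2 from 11545656 to 11548293, read 27.4, 40.3 and 35.4 CPM for WT replicates 1, 2 and 3, 22.5, 35.9 and 30.8 for *pif3*, 18.9, 32.6 and 25.8 for *pif145* and 17.5, 30.6 and 24.8 for *pifq*. Within each replicate number the order was WT, *pif3*, *pif145*, *pifq*, although the genotypes overlapped across numbers. Its *pifq*/WT difference was log2 -0.50 (SE 0.26) with adjusted p = 0.213, and 1.5e-05 in the blocked fit. The ratio of *EIN3* to *EIL1* reads was 3.33 ± 0.37 for WT, 4.00 ± 0.25 for *pif3*, 3.58 ± 0.24 for *pif145* and 3.43 ± 0.64 for *pifq* (SD, n = 3).

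*EBF1* and *EBF2* encode the F-box proteins that target EIN3 and EIL1, and *EBF2* is itself induced by EIN3. *EBF1* (AT2G25490), on chromosome 2 from 10847375 to 10850797, stood at 50.2, 74.1 and 77.3 CPM for WT replicates 1, 2 and 3, 38.4, 77.5 and 88.1 for *pif3*, 32.8, 76.8 and 77.7 for *pif145* and 34.6, 49.3 and 56.2 for *pifq*. It was the gene least changed in *pif145*, where 2 of 3 libraries matched or passed their WT partner. In *pifq*/WT the difference was log2 -0.53 (SE 0.36, adjusted p = 0.342; 5.8e-04 blocked). Its upstream stretch is shown as the only one of the 10 with a PBE-box.
EBF1 (chr2:10850798-10851047, minus strand): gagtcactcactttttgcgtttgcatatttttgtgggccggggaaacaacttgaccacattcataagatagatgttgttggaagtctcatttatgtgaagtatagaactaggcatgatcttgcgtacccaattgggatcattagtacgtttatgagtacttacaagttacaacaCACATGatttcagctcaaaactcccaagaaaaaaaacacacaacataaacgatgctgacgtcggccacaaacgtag

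*EBF2* (AT5G25350), on chromosome 5 from 8794252 to 8797349, stood at 78.7, 135 and 134 CPM for WT replicates 1, 2 and 3, 79.9, 119 and 132 for *pif3*, 57.2, 112 and 123 for *pif145* and 61.5, 90.2 and 94.8 for *pifq*. Replicate 1 was low in every genotype, which made WT replicate 1 lower than 2 of the 3 *pifq* libraries. The *pifq*/WT difference was log2 -0.50 (SE 0.31, adjusted p = 0.291; 8.5e-05 blocked). *EBF2* gave 1.71 ± 0.13 reads per *EBF1* read in WT and 1.76 ± 0.07 in *pifq*, a difference within the spread of replicates.

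*HLS1* (AT4G37580), on chromosome 4 from 17658594 to 17660878, shared with *EIN3* and *EBF1* a mean that was highest in *pif3*. It read 11.9, 14.7 and 14.5 CPM for WT replicates 1, 2 and 3, 14.5, 14.7 and 14.3 for *pif3*, 8.86, 7.01 and 10.6 for *pif145* and 7.6, 10 and 7.69 for *pifq*. The 6 libraries of WT and *pif3* all lay above the 6 of *pif145* and *pifq*, with *pif3* at 106% of WT, *pif145* at 64.3% and *pifq* at 61.5%. The difference in *pifq*/WT was log2 -0.70 (SE 0.18, adjusted p = 0.0181), 1.62-fold lower. The adjusted p rose above 0.05 without WT replicate 2 (0.067), WT replicate 3 (0.0583), *pifq* replicate 1 (0.0668) or *pifq* replicate 3 (0.077), and without replicate 1 (0.0524), 2 (0.0698) or 3 (0.186) of every genotype. In *pif145*/WT it was log2 -0.64 (SE 0.18) with adjusted p = 0.0793, and 0.00113 in the blocked fit. The upstream stretch of *HLS1* is shown because it held no match to any of the 3 motifs.
HLS1 (chr4:17658344-17658593, plus strand): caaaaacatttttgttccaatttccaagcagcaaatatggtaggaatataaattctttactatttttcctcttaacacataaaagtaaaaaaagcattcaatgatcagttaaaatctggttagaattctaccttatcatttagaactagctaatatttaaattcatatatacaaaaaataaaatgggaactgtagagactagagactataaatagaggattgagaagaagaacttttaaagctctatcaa

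**Figure D2:**
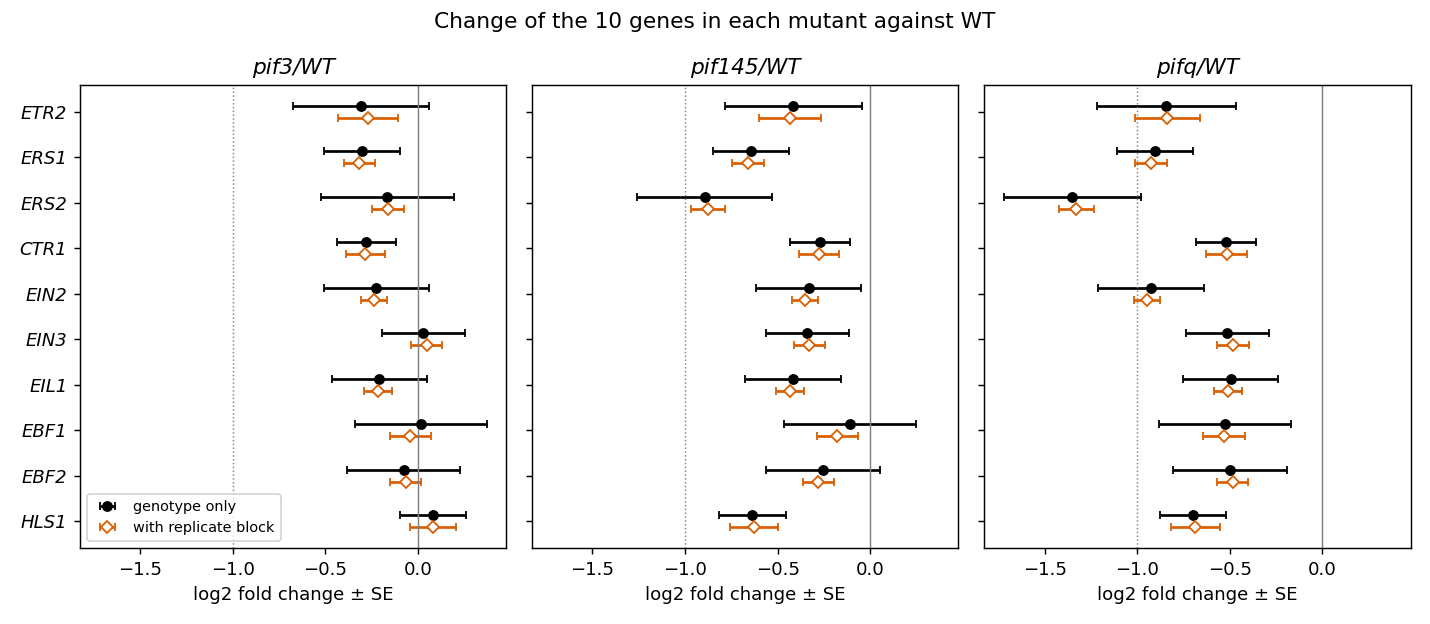
Log2 fold change (horizontal axis) with its SE as a bar for each of the 10 genes in *pif3*/WT, *pif145*/WT and *pifq*/WT, from the fit with genotype only (black circles) and the blocked fit (open diamonds); the dotted line marks a 2-fold fall. In *pifq*/WT all points lie between -1.35 and -0.48, and only *ERS2* lies beyond the dotted line.

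The effect of mutating PIF1, PIF4 and PIF5 alone was read from *pif145*/WT. In edgeR 0 of 10 genes passed with or without the 2-fold limit (1.71% and 3.31% of loci tested did, 1.34% as lower at the adjusted p), 3 were at an unadjusted p under 0.05 (*ERS1*, *ERS2* and *HLS1*; 16.8% of loci tested), and DESeq2 passed 1 (*HLS1*) at the adjusted p (6.8% of loci). In the blocked fit 7 of 10 were lower at the adjusted p (*ERS1*, *ERS2*, *EIN2*, *EIN3*, *EIL1*, *EBF2* and *HLS1*), against 15.5% of loci tested. The 10 log2 fold changes were negative with a median of -0.38, led by *ERS2* at -0.89 (SE 0.37, adjusted p = 0.233), *ERS1* at -0.64 (SE 0.21, adjusted p = 0.118) and *HLS1* at -0.64, and *EBF1* was nearest 0 at -0.11 (SE 0.36). In all, 9 genes were lower in all 3 same-numbered pairs, *EBF1* being the exception (30.4% of loci tested), and *ERS1*, *CTR1* and *HLS1* did not overlap WT (10.2% of loci).

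The effect of mutating PIF3 alone was read from *pif3*/WT. By edgeR 0 of 10 genes passed (0.0381% of loci tested did, 0.0109% as lower), 0 were at an unadjusted p under 0.05 (4.63% of loci), and DESeq2 passed 0 (0.455% of loci). In the blocked fit *ERS1* (log2 -0.32, SE 0.08, adjusted p = 0.0267) and *EIN2* (log2 -0.24, SE 0.07, adjusted p = 0.0457) were lower, 2 of 10 where 2.77% of loci tested were. The median log2 fold change was -0.19, and *EIN3* (0.03), *EBF1* (0.02) and *HLS1* (0.08) were close to 0, each on the negative side when library totals were left unscaled, and *EBF1* also in the blocked fit. The 5 genes *ERS1*, *ERS2*, *CTR1*, *EIN2* and *EIL1* were lower in all 3 same-numbered pairs (20.9% of loci tested), and only *CTR1* did not overlap WT (4.34% of loci).

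**Figure D3:**
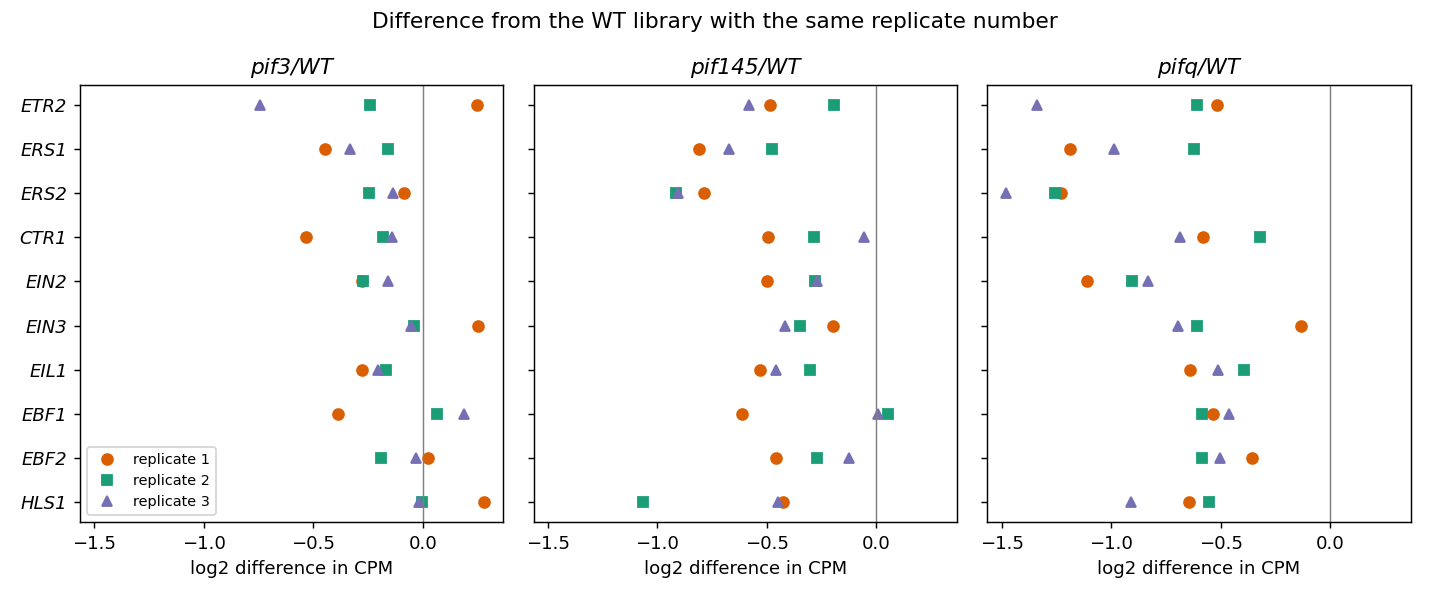
Log2 difference in CPM (horizontal axis) between each mutant library and the WT library of the same replicate number, for the 10 genes; each point is 1 pair. In *pifq* every difference is negative, in *pif145* every one but 2 of *EBF1* is, and in *pif3* those of *EBF1*, *EIN3*, *EBF2*, *ETR2* and *HLS1* fall on both sides of 0.

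Mutation of PIF3 on top of the other mutations was read from *pifq*/*pif145*. In edgeR 0 of 10 genes passed (0.725% of loci tested did with the 2-fold limit, and 0.975%, 0.621% as lower, at the adjusted p alone), 0 were at an unadjusted p under 0.05 (8.78% of loci), and DESeq2 passed 0 (2.38% of loci). The blocked fit had *ERS1*, *ERS2*, *EIN2* and *EBF1* lower at the adjusted p, 4 of 10 against 7.03% of loci tested. *EIN2* and 5 others were lower in all 3 same-numbered pairs (24.1% of loci), and 0 genes had no overlap (5.96% of loci). *EIN2* showed the largest difference, from 111.8 ± 32.7 to 74.1 ± 23.4 CPM (log2 -0.59, SE 0.28, adjusted p = 0.596; 8.4e-06 blocked), while *HLS1* differed by log2 -0.06 (SE 0.18) and *EIL1* by -0.08 (SE 0.26).

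The comparison *pifq*/*pif3* gave the effect of the other mutations in *pif3* mutants. In edgeR 0 of 10 genes passed with the 2-fold limit (5.02% of loci tested did), 5 were at an unadjusted p under 0.05 (24.9% of loci), and DESeq2 passed 1, *ERS2* (5.56% of loci). At the adjusted p alone *HLS1* was lower (1 of 10, where 10.8% of loci tested passed, 5.2% as lower), by log2 -0.78 (SE 0.18, adjusted p = 0.0166). That p rose above 0.05 without *pif3* replicate 2 (0.0547), *pifq* replicate 1 (0.062) or *pifq* replicate 3 (0.0738), and without replicate 1 (0.0765), 2 (0.0819) or 3 (0.178) of every genotype. *ERS2* was at log2 -1.19 (SE 0.37, adjusted p = 0.0605), and in the blocked fit it fell (adjusted p = 1.2e-08, where 7.19% of loci passed) and 9 of 10 genes, *CTR1* excepted, were lower at the adjusted p (20.9% of loci tested). All 10 were lower in each same-numbered pair (33.3% of loci), and *ERS2*, *EIN3* and *HLS1* did not overlap (13.4% of loci).

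An interaction contrast, *pifq*/*pif145* minus *pif3*/WT, asked if mutating PIF3 had an unequal effect in WT and in *pif145*. In edgeR 0 of 10 genes passed (0.109% of loci tested did), 0 were at an unadjusted p under 0.05 (3.09% of loci), DESeq2 passed 0 (0.275% of loci), and the blocked fit passed 0 (2.57% of loci). *EIN2* came nearest in the blocked fit, at log2 -0.36 (SE 0.1, adjusted p = 0.0656), and *HLS1* was at -0.14 (SE 0.19, adjusted p = 0.8).

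The share of the WT-to-*pifq* difference in mean CPM that each intermediate mutant retained is a description of the same values. In *pif145*, *EIL1* retained 14.0% of it (8.73% to 20.3% over the 3 replicate numbers), *ERS1* 22.7% (19.2% to 24.7%), *ERS2* 24.4% (19.1% to 27.3%) and *EIN2* 56.5% (45.5% to 62.2%). The ranges were wide for *CTR1*, at 43.9% (10.4% to 90.01%), and for the receptor gene *ETR2*, at 45.4% (5.21% to 63.5%). They crossed 0 for *EIN3* at 30.2%, *EBF2* at 45.0%, *EBF1* at 76.7% and *HLS1* at 7.31% (-63.6% to 42.7%), so that the order of the 10 genes was not fixed by these libraries. In *pif3* the 10 shares ran from 42.2% for *CTR1* (6.64% to 75.0%) to 115% for *HLS1* (97.6% to 159%). They were 59.3% for *ERS1* (52.5% to 70.2%), 82.3% for *ERS2* (72.9% to 89.9%) and 69.6% for *EIN2* (63.0% to 76.4%). The ranges were wide for *ETR2* (33.5% to 162%), *EBF1* (24.2% to 151%) and *EIN3* (90.2% to 316%), so the order was not fixed here either.

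Replicate 1 was the lowest library in 4 of 4 genotypes for each gene but *CTR1* and *HLS1*, where it was so in 2 of 4. The share of all loci tested with this pattern was not counted, so it cannot be called a trait of these genes. Replicate 1 was also the only one sequenced on a GAIIx instrument, and the instrument and the replicate cannot be told apart. Pearson's r of log2 CPM over the 12 libraries ranged from 0.38 (*EBF1* and *HLS1*) to 0.96 over the 45 pairs of genes, with a median of 0.79. With replicate means removed the range was 0.50 to 0.98. These libraries share genotypes, replicates and scaling, so the values describe them only.

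Among all loci tested, those most like *ERS2* over the 12 libraries were AT5G49710 (r = 0.989), *AAE5* (r = 0.987) and the sugar transporter gene *STP1* (r = 0.982). Those most like *HLS1* were AT1G33102 (r = 0.933), *SERAT2;1*, a serine acetyltransferase gene of cysteine synthesis (r = 0.933), and *THA1*, a threonine aldolase gene (r = 0.927), which fell in *pifq* (log2 -3.01, adjusted p = 4.7e-05).

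The 4 further lists gave the surroundings of the 10 genes in *pifq*/WT, where 8.28% of loci tested were lower and 10.1% higher at the adjusted p, and 25.9% and 24.6% in the blocked fit. Of 17 other ethylene signalling genes 16 were tested, 4 were lower at the adjusted p and 0 higher (9 and 0 blocked), with a median log2 of -0.38. The 4 were *RAN1*, a copper transporter that loads the receptors (log2 -0.64, SE 0.13, adjusted p = 0.00459), *RTH*, the homolog of the receptor regulator gene *RTE1* (log2 -0.56, adjusted p = 0.0136), *ARL*, the *ARGOS*-like gene (log2 -0.69, adjusted p = 0.0198), and *ARGOS*, whose product dampens ethylene sensitivity and which fell from 35.6 ± 13.4 to 16.3 ± 4.87 CPM (log2 -1.13, SE 0.3, adjusted p = 0.0207).

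Of 16 ethylene response genes 14 were tested, 3 were lower and 1 higher at the adjusted p (6 and 1 blocked), with a median of -0.31, and these 4 of 14 stood beside 18.4% of all loci in either direction. *EDF3* and *EDF4* encode RAV-type factors that ethylene induces. *EDF3* fell from 48.7 ± 21.6 to 12.1 ± 6 CPM (4.01-fold, log2 SE 0.44, adjusted p = 0.00742), *EDF4* was 1.997-fold lower (log2 SE 0.19, adjusted p = 0.00341), and *ESE3* at -0.68 (SE 0.21, adjusted p = 0.0441). *ORA59*, an ERF factor that joins ethylene and jasmonate responses, rose from 0.449 ± 0.133 to 1.99 ± 0.568 CPM (log2 2.13, SE 0.39, adjusted p = 0.00277).

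Of 16 ethylene synthesis genes 13 were tested and 4 fell (3.35% of loci tested fell), with a median of -0.51. Of the 13, 4 had positive changes, and in the blocked fit 6 were lower and 2 higher at the adjusted p. *ACS5* and *ACS8* encode synthases of the ethylene precursor and fell, to log2 -2.97 and -3.06, and *ACO5*, which encodes an oxidase of the last step, went from 255.7 ± 72.6 to 76.9 ± 20.9 CPM. Of 17 other apical hook genes 14 were tested, and 6 were lower at the adjusted p and 0 higher (8 and 0 blocked; 8.28% of loci tested were lower without the block), with a median of -0.37. *WAG1*, a kinase gene of auxin transport, fell from 3.29 ± 0.662 to 0.553 ± 0.233 CPM (log2 -2.55, SE 0.33, adjusted p = 2.9e-04). The auxin response factor gene *NPH4* was at log2 -0.83 (SE 0.16, adjusted p = 0.00302), the auxin influx carrier gene *AUX1* at -0.56 (SE 0.11, adjusted p = 0.00473) and *ARF2* at -0.49 (SE 0.14, adjusted p = 0.0333).

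**Figure D4:**
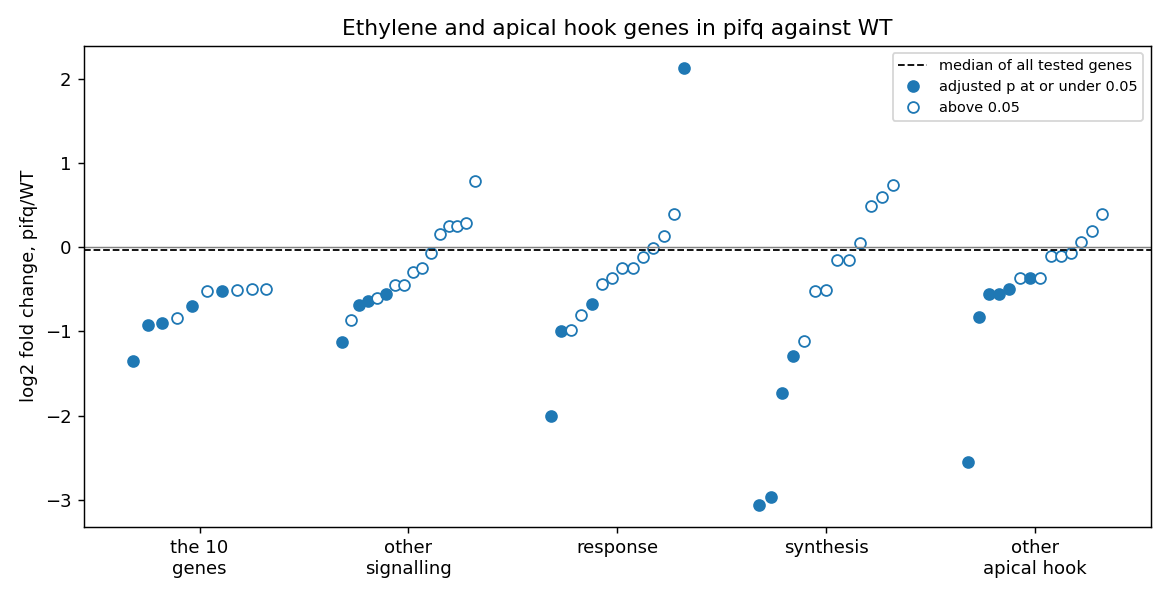
Log2 fold change in *pifq*/WT (vertical axis) of every tested gene of the 10 and of the 4 further lists, ordered by size within a list; filled points had an adjusted p at or under 0.05, and the dashed line is the median of all loci tested. The 10 genes lie between -1.35 and -0.50 and are all on the same side of the dashed line, whereas each of the other lists has genes on both sides.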

How the data were processed

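Per the study's methods, poly(A) 3′-end fragments were sequenced, replicate 1 of each genotype on a GAIIx and replicates 2 and 3 on a HiSeq2000. Bowtie placed 36-base reads on the representative transcriptome with 0 mismatches. TAIR9 is named in the methods but TAIR10 in the submitters' processing notes, which also list CASAVA 1.7.0 and Bowtie 0.12.7. The deposited values are raw counts per locus, which the authors made from reads falling uniquely in the last 500 bases on the coding strand. Coordinates and upstream sequences here are from RefSeq TAIR10.1, where 32835 of the 33602 loci (97.7%) were found. In that annotation 100% of the 36-base windows in the last 500 bases of each of the 10 genes occur in no other gene. *ERS1* and *EBF2* overlap loci on the opposite strand.

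TMM scaling and the edgeR quasi-likelihood test (edgeR 4.0.16, R 4.3.3) were applied to the counts, with genotype as the only term over 12 libraries and p-values adjusted over the 18356 loci that passed edgeR's expression filter (minimum count 10). The procedure was tested on simulated data with changes of at least 2-fold and no replicate effect. That test does not cover smaller changes or paired libraries. DESeq2 1.42.0, other scalings and filters, platform as a term and omission of libraries were alternatives. SE is on the log2 scale, ± is the SD over 3 libraries, and log2 CPM used a prior count of 2. Upstream sequences and figures were made with Python 3.11.15.

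The replicate numbers were taken as pairing the libraries, which the labels do not state. Across genes, deviations from the genotype mean had r of 0.51 to 0.68 in all 18 same-numbered pairs. In the 36 pairs of unlike number from different genotypes r was no more than -0.0036. The deviations within a genotype sum to 0, which pushes these values below 0, so they are not separate evidence. The methods tie replicate 1 to its own platform. The common dispersion was 0.0572, and 0.00719 once the number was a block.

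The 10 genes and the gene lists were chosen with earlier results of these data known. Named besides the 10 are the mutated PIF genes, the 4 tested genes of each further list with the smallest p in *pifq*/WT, and the 3 loci most correlated with *HLS1* and with *ERS2*. One gene under this rule is not reported here. *ETR1*, *EIN4* and *AG* were named outside that rule, after their values were seen.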

Additional observations from a re-analysis of the deposited data

How the results depend on the processing

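Alternatives changed counts more than directions. In *pifq*/WT, unscaled library totals moved the median of all loci from -0.03 to -0.20 on the log2 scale. They raised the count that fell from 1 to 3 (*ERS1*, *ERS2* and *EIN2*), while loci that fell went from 3.35% to 4.84%. The genes lower at the adjusted p alone went from 5 to 10 with the replicate block and to 10 with platform as a term. Lower loci went from 8.28% to 25.9% and 17.5%. The count of genes lower at that p was 6 with unscaled totals, 4 with only the compared libraries and 4 without the filter on low counts. In these fits 12.5%, 5.66% and 6.36% of loci were lower. At the adjusted p alone, *pif145*/WT went from 0 to 7 with the block, 4 with platform, 1 with DESeq2 and 1 without scaling (lower loci from 1.34% to 15.5%, 6.15%, 2.71% and 1.73%), *pif3*/WT from 0 to 2 (0.0109% to 2.77%) and *pifq*/*pif145* from 0 to 4 (0.621% to 7.03%) with the block. In *pifq*/*pif3* the count that fell went from 0 to 1 with the block, platform, DESeq2 or no scaling, and the count at the adjusted p alone from 1 to 9, 7, 2 and 3 in that order (loci that fell from 2.53% to 3.35%, 3.15%, 2.74% and 2.81%, and lower loci from 5.2% to 20.9%, 12.6%, 6.78% and 5.47%). Leaving out libraries, in fits without the block, gave 0 to 2 falls and 1 to 6 genes at the adjusted p in *pifq*/WT. In *pifq*/*pif3* it gave 0 to 1 and 0 to 5, and the other counts stayed at 0.

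Some signs turned, in comparisons where the gene had not passed the test with genotype as the only term. Among them, *EBF2* in *pif145*/WT was lower at the adjusted p in the blocked fit. In *pif3*/WT the signs that turned were those of *EBF1* (-0.041 with the block, -0.044 with platform, -0.096 unscaled), *EIN3* (-0.065 unscaled) and *HLS1* (-0.016 unscaled). Leaving out libraries, log2 changes ranged over -0.21 to 0.30 for *EBF1*, -0.29 to 0.11 for *EBF2*, -0.18 to 0.17 for *EIN3*, -0.46 to 0.11 for *ERS2* and -0.013 to 0.14 for *HLS1* in *pif3*/WT, over -0.30 to 0.20 for *EBF1* and -0.47 to 0.018 for *EBF2* in *pif145*/WT, and over -0.27 to 0.13 for *EIL1* and -0.34 to 0.15 for *HLS1* in *pifq*/*pif145*. For the interaction contrast the ranges were -0.45 to 0.18 for *ETR2*, -0.14 to 0.22 for *ERS1*, -0.57 to 0.0026 for *ERS2*, -0.16 to 0.29 for *CTR1*, -0.37 to 0.00094 for *EIN3*, -0.063 to 0.34 for *EIL1*, -0.44 to 0.045 for *EBF2* and -0.47 to 0.023 for *HLS1*. The cause of these changes was not tested. *ETR2* had the fewest reads of the 10, with 66 in its lowest library.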
